A study of Rattus norvegicus with 28 samples.

Results

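Axon guidance, cell adhesion and extracellular matrix genes of the dorsal root ganglion (DRG) were examined in rats with hind paw inflammation. The members are the genes that the study listed as differentially expressed from naïve in both of its pain models and whose symbols begin with a name of these families, such as plexin, semaphorin, ephrin, Robo, netrin, contactin, cadherin, collagen, laminin, integrin or ADAM. Of the 1949 listed genes, 75 carried such a name, and without Pcdh9 74 members were left among the 32754 genes counted. The list was used for symbols and Ensembl identifiers only. All 74 members were found in the counts, and 73 reached 10 counts in each library.

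RNA-seq of 2 libraries was analysed. Both came from the CFA group, which holds male Sprague-Dawley rats aged 12 weeks, taken 48 h after intraplantar complete Freund's adjuvant (CFA), an oil emulsion with killed mycobacteria that inflames the paw. Each library held the pooled ipsilateral lumbar DRGs of 1 rat, with neurons, glia, connective tissue and vessels together, and the study kept only rats whose paw had become hypersensitive to touch. Naïve and nerve injury (CCI) libraries of RNA were not analysed here, so no gene was compared between conditions and no direction of change is given. The study chose the list in part on these 2 libraries, and the levels below are therefore a description without a test. The libraries summed to 10520647 counts (CFA replicate 1) and 28825688 counts (CFA replicate 2). Defining markers of sensory neurons, all of them also genes of the study's list, were abundant. The 11 of them had means of 247 CPM or more, where CPM is a gene's count divided by the library total and scaled to 1000000, and their summed share was 3.63% and 3.74% of the reads.

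Guidance cues are secreted or membrane-bound proteins that attract or repel growing axons through receptors on the growth cone. Semaphorins act through plexins and neuropilins, Slits through Robo receptors, netrins through DCC and Unc5 receptors, and ephrins through Eph receptor tyrosine kinases. Contactins, neurexins and cadherins hold neurons to each other and to glia. Collagens, laminins and the proteases of the ADAM, ADAMTS and MMP families build, anchor and cut the matrix of the ganglion and its capsule.

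Reads of the members made up 0.598% of CFA replicate 1 and 0.600% of CFA replicate 2. A member had a median of 22.7 CPM (mean of the 2 libraries), with the middle 50% of the members between 8.82 and 85.9 CPM. The other 1875 genes of the list had a median of 20.4 CPM, and the 21122 genes with any count a median of 9.09 CPM. CPM is not divided by transcript length, so a longer gene draws more reads at the same number of transcripts. The order of genes below is therefore an order of reads. The reads were unevenly spread, and the 5 members with the most reads held 42.2% and 41.9% of all member reads.

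**Figure D1:**
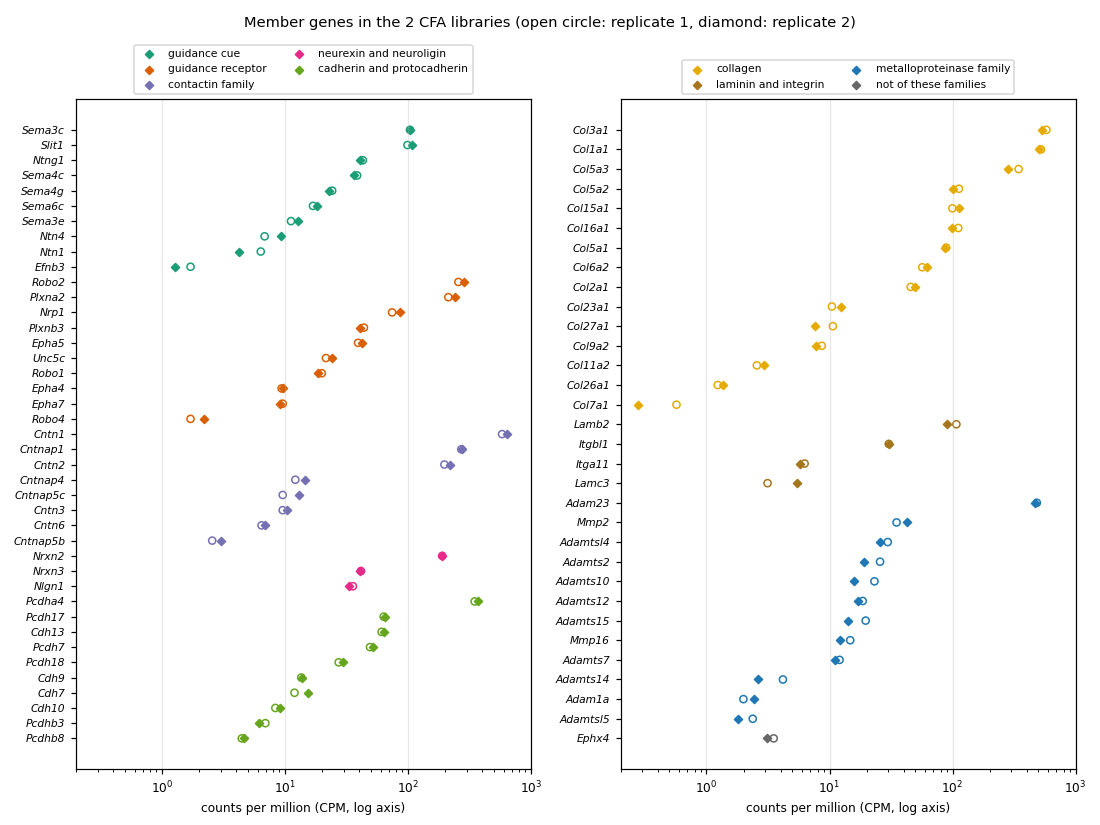
CPM of 73 of the 74 members on a log axis, grouped by role, in CFA replicate 1 (open circles) and CFA replicate 2 (diamonds), without error bars. The members run from 0.424 CPM (Col7a1) to 613 CPM (Cntn1), and the libraries lie close together for most genes.

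The 10 guidance cues had a median of 20.6 CPM, from 1.5 CPM for Efnb3 to 104 CPM for Sema3c. Sema3c, a secreted semaphorin, had 104 CPM in CFA replicate 1 and 103 CPM in CFA replicate 2. Slit1, a secreted ligand of Robo receptors, had 99.2 and 107 CPM. Ntng1, a netrin-G tethered to the membrane by a lipid anchor, had 43.1 and 40.6 CPM. These 3 genes took most of the reads of the cues, and their libraries were near each other. The lowest cues were Ntn1, the classical netrin, with 6.37 and 4.27 CPM, and Efnb3, which encodes the membrane-bound ephrin-B3, with 1.71 and 1.28 CPM. Efnb3 rested on 18 and 37 counts. The other 5 cues lay between 8.07 CPM for Ntn4, a netrin of basement membranes, and 37.6 CPM for the transmembrane semaphorin Sema4c.

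Among the 10 guidance receptors the median was 32.0 CPM. Robo2, a Slit receptor, drew the most reads, with 257 CPM in CFA replicate 1 and 288 CPM in CFA replicate 2 (mean 272 ± 21.5 CPM, SD, n = 2). Plxna2, which encodes the semaphorin receptor plexin-A2 (ENSRNOG00000007324), had 213 and 241 CPM (mean 227 ± 19.4 CPM). Nrp1, the co-receptor of class 3 semaphorins, had 74.4 and 86.7 CPM. All 3 had more CPM in replicate 2. The lowest receptors were Epha7, an Eph receptor, at 9.60 and 9.16 CPM and Robo4, the Robo receptor of endothelial cells, at 1.71 and 2.19 CPM. The other 5 receptors lay between 9.49 CPM for the Eph receptor Epha4 and 42.2 CPM for the plexin Plxnb3. The endothelial markers Kdr and Tie1, outside the members, had 24.8 and 14.1 CPM on average.

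In the contactin family Cntn1 took the most reads of all members, with 583 CPM in CFA replicate 1 and 643 CPM in CFA replicate 2 (mean 613 ± 42.2 CPM). Contactin-1 is a lipid-anchored adhesion protein that pairs with Caspr, the product of Cntnap1, at the paranodal junction between axon and myelin. Cntnap1 had 272 and 277 CPM, and Cntn2, which encodes the contactin of the juxtaparanode, had 198 and 219 CPM. The other 5 family members lay between 2.79 and 13.4 CPM. The lowest were Cntn6 with 6.46 and 6.90 CPM and Cntnap5b with 2.57 and 3.02 CPM. Cntnap5b and Cntnap5c are similar paralogs, and read counting can split reads between them.

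Neurexins are presynaptic adhesion proteins and neuroligins their postsynaptic partners. Nrxn2 had 190 CPM in CFA replicate 1 and 191 CPM in CFA replicate 2, and Nrxn3 41.5 and 41.1 CPM. Nlgn1 had 35.7 and 33.2 CPM. The 10 cadherins and protocadherins had a median of 21.1 CPM. Pcdha4, a clustered protocadherin, had 349 and 371 CPM. The genes of its cluster share their last exons, so these reads cannot be given to a single isoform. Pcdh17 followed with 63.6 and 65.7 CPM and Cdh13, the lipid-anchored T-cadherin, with 61.1 and 63.9 CPM. The lowest were Pcdhb3 with 6.94 and 6.11 CPM and Pcdhb8 with 4.47 and 4.68 CPM, whose coding sequences resemble those of other clustered protocadherins. The other 5 lay between 8.73 CPM for Cdh10 and 50.5 CPM for Pcdh7.

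The 15 collagens drew more reads than any other role, with a share of 0.200% in CFA replicate 1 and 0.186% in CFA replicate 2. Col3a1 and Col1a1, chains of the fibrillar collagens of connective tissue, had 580 and 524 CPM in replicate 1 and 533 and 501 CPM in replicate 2. Col5a3, a chain of type V collagen, had 344 and 281 CPM (mean 313 ± 44.6 CPM, SD, n = 2). These 3 collagens were lower in replicate 2. Col26a1 had 1.24 and 1.35 CPM. Col7a1, a collagen of the anchoring fibrils of skin, was the lowest member, with 6 and 8 counts. The other 10 lay between 2.74 CPM for Col11a2 and 107 CPM for Col5a2, a second chain of type V collagen. Col1a1 and Col3a1 are also markers of fibroblasts. The other fibroblast markers examined ranged from 2.17 CPM for Pi16 to 1809 CPM for Sparc.

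Lamb2, the laminin beta-2 chain of basement membranes, had 107.50 CPM in CFA replicate 1 and 90.9 CPM in CFA replicate 2. Itgbl1, related to the integrin beta chains, had 30.3 and 30.7 CPM, and Itga11, an integrin alpha chain that binds collagen, 6.27 and 5.79 CPM. Lamc3, a laminin gamma chain, had 3.14 and 5.48 CPM. In the metalloproteinase family Adam23, a neuronal ADAM protein without protease activity, stood apart with 485 and 466 CPM. Next came Mmp2, which encodes gelatinase A, with 35.1 and 43.1 CPM and Adamtsl4, an ADAMTS-like matrix protein without a protease domain, with 29.8 and 25.5 CPM. The lowest were Adam1a with 2.0 and 2.43 CPM and Adamtsl5 with 2.38 and 1.80 CPM. The other 7 lay between 3.41 CPM for Adamts14 and 22.4 CPM for Adamts2. Ephx4, with 3.52 and 3.12 CPM, is a member by its first letters only, since it encodes an epoxide hydrolase and not an Eph receptor.

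The difference between the libraries was then examined for each member as the log2 ratio of CPM, replicate 2 over replicate 1. It compares 2 rats of 1 group, not conditions, and does not depend on gene length. In bulk RNA, fewer cells of a type and less RNA per cell cannot be told apart. Exact Clopper-Pearson 95% intervals were set on the share of a gene's reads in replicate 2, and they cover counting error only. The members had a median log2 ratio of 0.03 with an SD of 0.26 over 73 genes, against a median of -0.01 and an SD of 0.29 over the 15115 genes that reached 10 counts in each library. While 7.75% of all genes and 6.16% of the rest of the list had a ratio past 0.5 in size, 4 of the 73 members did, or 5.48%. Of these, 1 was higher in replicate 2 (2.65% of all genes) and 3 were lower (5.1% of all genes). The counting interval left out 0 for 38.4% of the members, 31.3% of the rest of the list and 25.6% of all genes. It lay above 0 for 14 members and below 0 for 14, and for 11.4% and 14.2% of all genes. An interval narrows as reads accumulate, and these sets were not matched for reads. The part of read depth in these shares was not tested. Across the 74 members, which are not independent replicates, the CPM of the libraries correlated with a Spearman rho of 0.993.

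**Figure D2:**
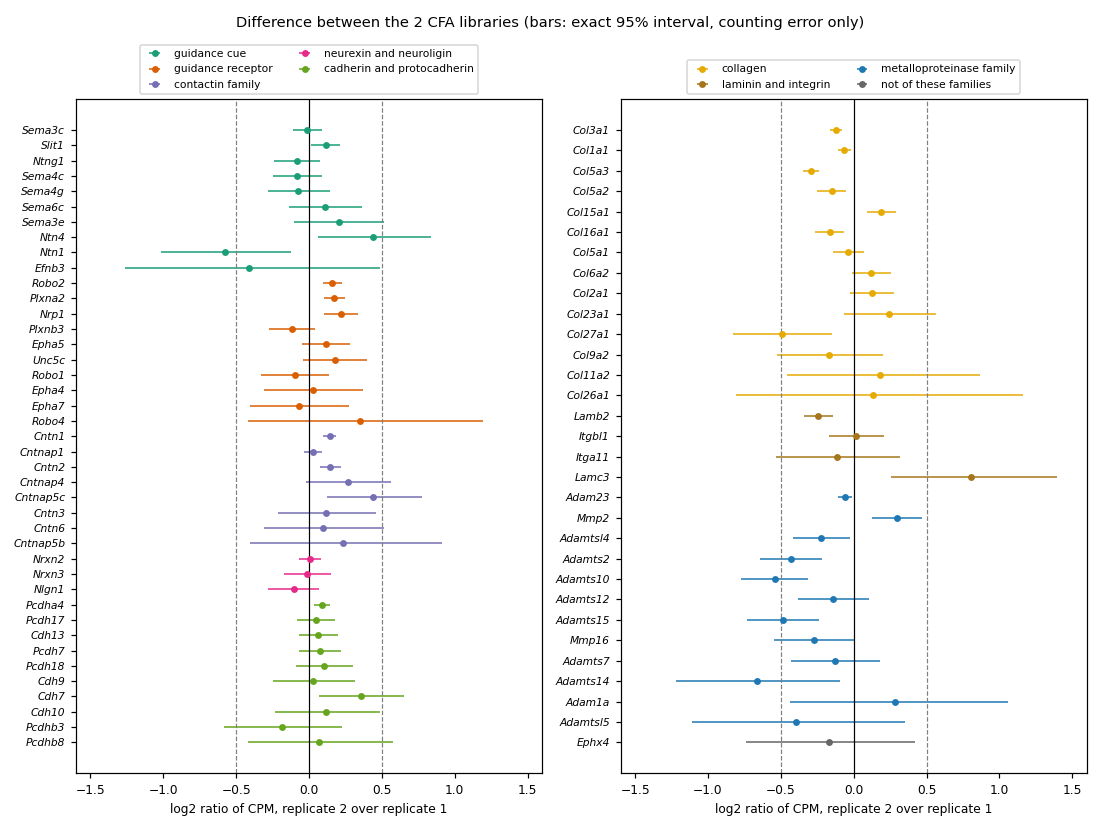
Log2 ratio of CPM, replicate 2 over replicate 1, of 72 of the 73 members that reached 10 counts in each library, with exact 95% counting intervals and dashed lines at 0.5 and -0.5. Lamc3 lies farthest to the right at 0.81 and Adamts14 farthest to the left at -0.67.

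The largest ratio belonged to Lamc3, at 0.81 with an interval from 0.26 to 1.39. It rested on 33 counts in replicate 1 and 158 in replicate 2. The members farthest in the other direction were Adamts14 at -0.67 (interval -1.22 to -0.10), Ntn1 at -0.58 (-1.02 to -0.13), Adamts10 at -0.54 (-0.77 to -0.31) and Col27a1 at -0.49 (-0.83 to -0.15). Adamts14 encodes a procollagen N-proteinase, Adamts10 a protease of the ADAMTS family and Col27a1 a fibrillar collagen. Of these, Adamts14 and Lamc3 had fewer than 50 counts in replicate 1. Among members with many reads, Col5a3 differed by -0.29 (-0.35 to -0.24) and Lamb2 by -0.24 (-0.34 to -0.14), so both intervals lay below 0.

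**Figure D3:**
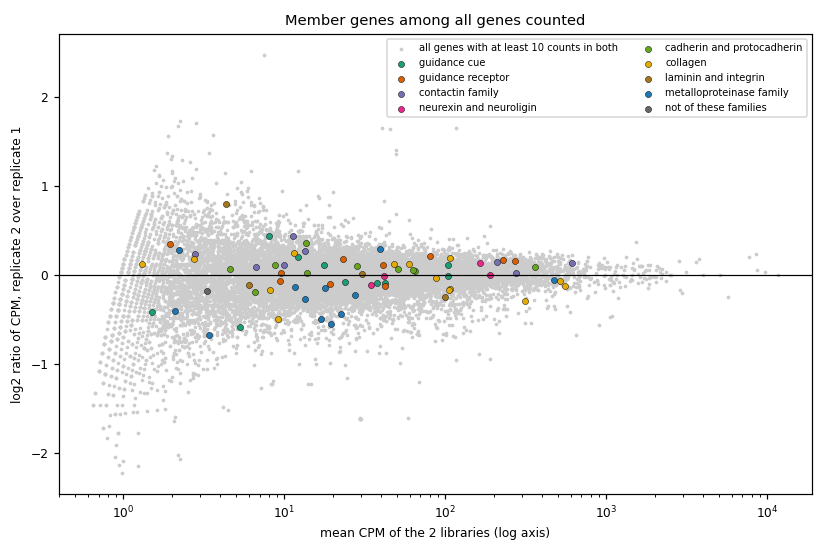
Log2 ratio between the libraries against the mean CPM (log axis) of the 15115 genes that reached 10 counts in each library (grey), with the members coloured by role. The members lie within the cloud of all genes, and the cloud narrows as CPM rises.

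The direction of the difference was then counted for each family. In the contactin family 8 of 8 genes were higher in replicate 2, with a median log2 ratio of 0.14, and 47.5% of all genes were higher there. Cntn1 differed by 0.14 (interval 0.10 to 0.18), Cntn2 by 0.14 (0.07 to 0.22) and Cntnap5c by 0.44 (0.12 to 0.77), and the intervals of the other 5 included 0. Of the 10 cadherins and protocadherins 9 were higher, with a median of 0.07. Their intervals lay above 0 for Pcdha4 (0.09) and Cdh7 (0.36) only, and included 0 for the other 8. The median was 0.14 for the guidance receptors, 7 of 10 of them higher, with intervals above 0 for Robo2 (0.16), Plxna2 (0.17) and Nrp1 (0.22). For comparison with these receptors, the cadherins and the contactins, intervals lay above 0 for 11.4% of all genes. For the guidance cues the median was -0.04, and 4 of 10 were higher. Of the 4 neurexin and neuroligin genes 2 were higher and 2 lower, with a median of -0.0047 that turned to 0.012 and 0.011 with DESeq2 size factors and TMM scaling.

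The metalloproteinase family had 10 of 12 genes lower in replicate 2 and a median of -0.25, while 52.5% of all genes were lower. The 2 genes that were higher were Mmp2 at 0.30 (interval 0.13 to 0.47) and Adam1a at 0.28 (-0.44 to 1.06). The 8 ADAMTS and ADAMTSL genes, a group set apart after their values were seen, were all lower, with a median of -0.41 and a range from -0.67 to -0.13. Their intervals lay below 0 for 5 of the 8, which were Adamts2 at -0.43, Adamts10 at -0.54, Adamts14 at -0.67, Adamts15 at -0.49 and Adamtsl4 at -0.22. ADAMTS2 is, like ADAMTS14, a procollagen N-proteinase that trims fibrillar procollagens, and the reads of Col1a1 per read of Adamts2 were 20.3 in replicate 1 and 26.2 in replicate 2. Of the 14 collagens 6 were higher and 8 lower, or 57.1% lower against 52.5% of all genes. Their median was -0.05, with intervals below 0 for 6 of 14 and above 0 for Col15a1, a collagen of the basement membrane zone, at 0.19. For comparison with these and the ADAMTS and ADAMTSL genes, intervals lay below 0 for 14.2% and above 0 for 11.4% of all genes. Intervals narrow with reads, and Col3a1, for example, had 6101 and 15366 counts. Of the 4 laminin and integrin genes 2 were higher and 2 lower, with a median of -0.05, and they held the highest ratio of all members (Lamc3).

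**Figure D4:**
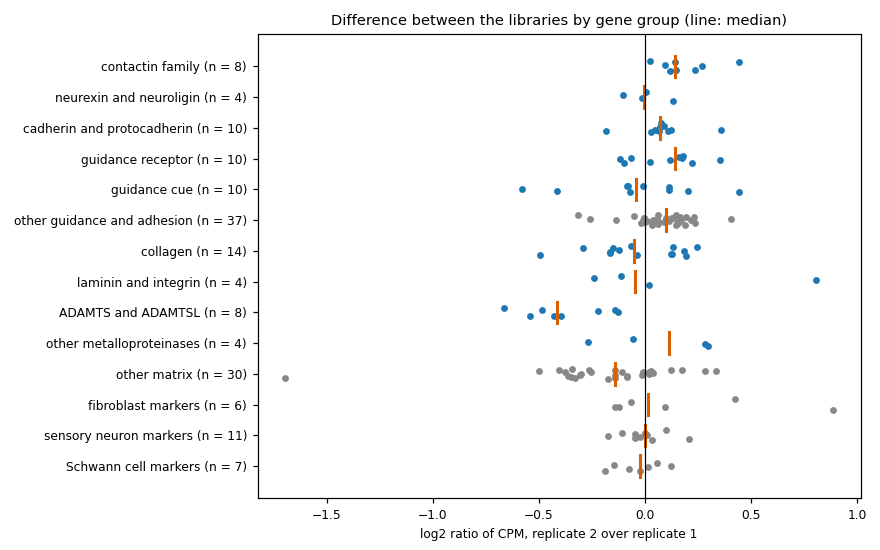
Log2 ratio of CPM, replicate 2 over replicate 1, per gene (points) with the median of each group (line), for the roles of the members (blue) and other gene lists (grey). The contactin family lies to the right of 0 and the ADAMTS and ADAMTSL genes to the left.

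Other genes of the same processes, picked by hand from the study's list with earlier results of these data known, were set beside the members as a description. Of 37 other guidance and adhesion genes 29 were higher in replicate 2 (47.5% of all genes), with a median of 0.10. Intervals lay above 0 for 11 and below 0 for 2 (11.4% and 14.2% of all genes). Past 0.5 in size lay 0 of the 37, against 7.75% of all genes. Rtn4, which encodes the growth inhibitor Nogo, had 2001 and 2145 CPM, and Nptn, which encodes neuroplastin, 452 and 446 CPM. Of 30 other matrix genes with at least 10 counts, 21 were lower (52.5% of all genes), with a median of -0.14. Intervals lay below 0 for 9 and above 0 for 3 (14.2% and 11.4% of all genes). Sparc, a collagen-binding matrix protein, had 1897 and 1721 CPM, and Spp1, which encodes osteopontin, 1080 and 1068 CPM. Past 0.5 lay 2 of these matrix genes, or 6.67%, against 7.75% of all genes. These were Gpc2, a glypican, at -1.70, from 13 and 11 counts, and Bmp1, the procollagen C-proteinase, at -0.50 (interval -0.68 to -0.32), which were named after their values were seen. The study had selected its whole list in part on these libraries.

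Markers of the cell types in the ganglion were read in the same way, and their part in the differences was not tested. All of them are also genes of the study's list, which was selected in part on these libraries. How specific each marker is for its cell type was not tested. The 11 sensory neuron markers had a median log2 ratio of 0.00, led by Nefm at 11574 and 11586 CPM and Nefl at 9561 and 9790 CPM. Their log2 ratios ran from -0.17 for Calca to 0.21 for Nefh. Intervals lay above 0 for 3 and below 0 for 3 (11.4% and 14.2% of all genes), and included 0 for 5. The 7 Schwann cell markers had a median of -0.03, led by Mbp at 2089 and 1981 CPM and Prx at 809 and 795 CPM, and the 5 satellite glia markers -0.04, led by S100b at 1162 and 1127 CPM and Ttyh1 at 285 and 263 CPM. Among the latter Gfap, a filament protein of glia, was lower in replicate 2 by a log2 ratio of -0.56. The 6 fibroblast markers had a median of 0.01, with 3 higher and 3 lower and log2 ratios from -0.14 for Sparc to 0.89 for Pi16. Their summed level was 3071 and 2835 CPM, of which Sparc made up most. The 4 endothelial markers were all higher in replicate 2 (47.5% of all genes), with a median of 0.21 and a summed level of 44.6 and 52.5 CPM. Their intervals lay above 0 for Kdr (0.07 to 0.50) and barely for Sox17 (0.003 to 0.91), and included 0 for Tie1 and Dll4. Intervals lay above 0 for 11.4% of all genes. The 4 immune cell markers, led by Lcp1 at 149 CPM and Lsp1 at 4.80 CPM on average, had a median of 0.20 and ranged from -0.54 to 0.69. The 3 muscle markers, led by Myom2 at 18.7 CPM and Myh6 at 10.4 CPM, had a median of 0.38 and summed to 29.3 and 33.0 CPM. They went in opposite directions. Myom2 was higher in replicate 2 at 0.65 (interval 0.40 to 0.92) and Myh6 lower at -0.73 (-1.04 to -0.41). The interval of Myh7, at 0.38, included 0. No marker was at 0. Col1a1 and Col3a1 are also members, and Sparc and Mag are also in the lists of other matrix and other adhesion genes.

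Ligands and receptors that pair with each other were compared through the ratio of their reads within a library, in which depth cancels. Between libraries this ratio can change by unequal change of the partners or by counting error. No interval was set on it, so these were not told apart. Robo2 had 2.59 reads per read of Slit1 in replicate 1 and 2.68 in replicate 2, and Plxna2 2.05 and 2.33 per read of Sema3c. Cntn1 had 2.14 and 2.32 reads per read of Cntnap1. For the fibrillar collagens, Col1a1 had 0.903 and 0.939 reads per read of Col3a1. Pairs with a low partner moved more. Unc5c had 3.39 and 5.72 reads per read of Ntn1, a netrin that binds it, and Lamb2 34.3 and 16.6 per read of Lamc3. Ntn1 rested on 67 and 123 counts and Lamc3 on 33 and 158. Both are among the members with the largest ratio between the libraries.

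Promoters of the members were then described from RefSeq sequence of the build GRCr8, as the 250 bases before the annotated start of each gene. Whether that start is the one used in the ganglion was not tested. Sequences were found for 51 members, with 52 promoters. The dinucleotide CG, where DNA is methylated in mammals and which is dense in CpG islands, occurred 10 times in the median member promoter, 15 times in that of the rest of the list and 5 times over all 33469 promoters. By role the median was 5.5 in the contactin family, 7.5 in the cadherins and protocadherins, 11 in the guidance receptors and in the collagens, and 24 in the metalloproteinase family. The 6 contactin promoters held between 0 and 13 CG dinucleotides and the 7 promoters of ADAMTS and ADAMTSL genes between 0 and 33. Those of Adamts14, Adamts10, Cntn1, Cntn3 and Plxna2 are shown. The first 2 are CG-rich genes among the farthest below 0 between the libraries. The contactins Cntn1 and Cntn3 are CG-poor, and Plxna2 is a guidance receptor with many reads. They were picked in part by CG number and library ratio, so they do not represent the members. Other members went against this contrast. Ntn4 (27 CG, log2 ratio 0.44) and Col23a1 (26 CG, 0.24) were higher in replicate 2, and Adamts7 (0 CG, -0.13) was lower. Capitals mark CG, and all are written 5′ to 3′ on the strand of the gene.
Adamts14: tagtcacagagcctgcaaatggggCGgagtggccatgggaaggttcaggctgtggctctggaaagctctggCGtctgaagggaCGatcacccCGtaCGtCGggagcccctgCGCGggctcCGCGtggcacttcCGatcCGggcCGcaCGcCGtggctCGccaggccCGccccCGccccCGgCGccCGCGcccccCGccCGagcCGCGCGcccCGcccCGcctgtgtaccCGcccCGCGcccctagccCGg
Adamts10: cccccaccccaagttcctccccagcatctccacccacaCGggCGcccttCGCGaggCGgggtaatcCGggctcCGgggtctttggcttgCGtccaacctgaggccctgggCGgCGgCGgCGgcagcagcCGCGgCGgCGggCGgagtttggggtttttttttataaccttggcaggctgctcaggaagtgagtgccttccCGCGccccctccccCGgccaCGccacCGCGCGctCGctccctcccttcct
Cntn1: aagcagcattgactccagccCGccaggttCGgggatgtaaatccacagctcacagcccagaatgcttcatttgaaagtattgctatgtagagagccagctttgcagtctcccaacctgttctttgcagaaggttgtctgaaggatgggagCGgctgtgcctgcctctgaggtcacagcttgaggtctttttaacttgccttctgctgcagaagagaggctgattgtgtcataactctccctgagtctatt
Cntn3: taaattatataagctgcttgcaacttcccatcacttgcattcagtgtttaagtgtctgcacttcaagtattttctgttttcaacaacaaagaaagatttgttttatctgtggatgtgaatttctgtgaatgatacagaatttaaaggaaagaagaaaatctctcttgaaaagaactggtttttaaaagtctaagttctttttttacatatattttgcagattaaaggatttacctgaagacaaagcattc
Plxna2: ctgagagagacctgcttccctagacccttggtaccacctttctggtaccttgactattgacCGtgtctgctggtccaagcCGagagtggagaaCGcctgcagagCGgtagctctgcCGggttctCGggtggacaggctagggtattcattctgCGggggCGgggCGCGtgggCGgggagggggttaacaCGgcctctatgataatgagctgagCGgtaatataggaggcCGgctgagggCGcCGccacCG

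The promoter of Adamts14, at chr20:29762683-29762932 on the minus strand of GRCr8, held 33 CG dinucleotides and 76.0% G and C. That of Adamts10, at chr7:15033685-15033934 on the plus strand, held 25 and 70.4%. The Plxna2 promoter, at chr13:108691280-108691529 on the plus strand, held 17 and 61.6%. In contrast, that of Cntn1, the member with the most reads, held 3 and 50% at chr7:125252060-125252309 on the plus strand, and that of Cntn3 0 and 30.0% at chr4:136681912-136682161 on the minus strand. Over the 50 members with a promoter and at least 10 counts, the CG number correlated with the log2 ratio between the libraries with a Spearman rho of -0.18 and a Pearson r of -0.35. Over the 1443 such genes of the whole list, rho was 0.05 and r 0.07. These genes share the same 2 libraries.

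**Figure D5:**
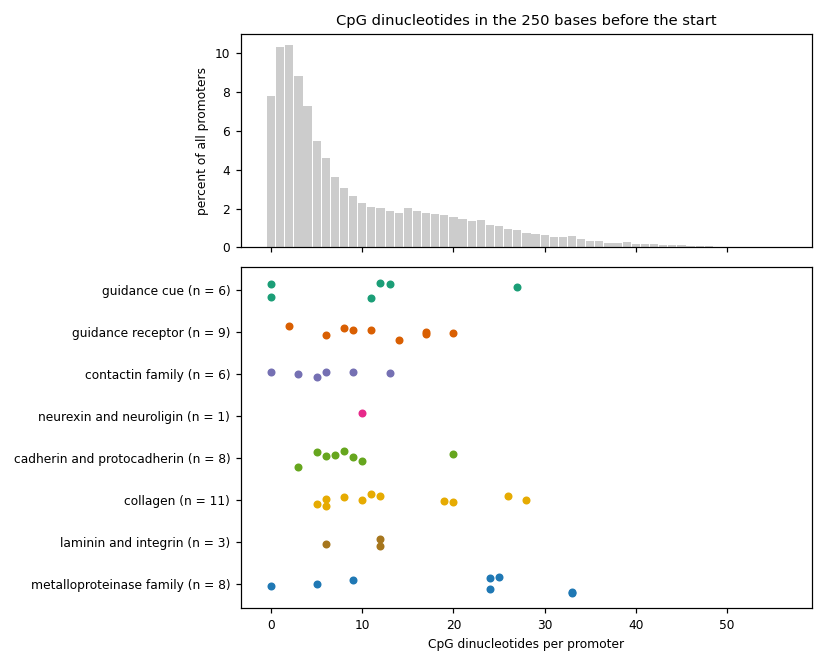
Number of CpG dinucleotides in the 250 bases before the start, as a percentage of all 33469 promoters (top) and for each member promoter by role (bottom). The contactin promoters lie at 0 to 13, and 2 metalloproteinase promoters reach 33.

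Short promoter motifs were searched by their letters on both strands. GGGCGG, the GC box read by Sp1 family factors, which itself contains a CG, was found in 44.2% of the member promoters, in 55.0% of those of the rest of the list and in 30.5% of all promoters. By role it was in 7 of 11 collagen promoters and in 1 of 8 cadherin and protocadherin promoters. CCAAT, the letters of the CCAAT box, was in 21.2% of the member promoters, 33.2% of the rest of the list and 34.0% of all. It was found in 4 of 8 cadherin and protocadherin promoters and in 1 of 11 collagen promoters. TATAAA, the letters of the TATA box, was in 4 member promoters (7.69%), those of Adamts10, Adamts7, Cntnap5c and Pcdhb8, in 6.0% of the rest of the list and in 12.9% of all. Such a match describes letters in this window only.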

How the data were processed

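RNA-seq of 2 CFA libraries was used. The authors used HISAT2 for alignment to rn6, discarded reads of ribosomal RNA, summarised the rest over Ensembl genes with featureCounts, and deposited the raw count of each gene without normalization. Whether counting used strand is not given in the sources used here, so reads of overlapping antisense genes may be included. The deposited ATAC-seq coverage carries rn6 coordinates without gene names and was not used here, and 0 columns of per-sample values in the count table were left out. Columns of the study's list that hold its own comparisons were not read.

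Counts were divided by the library total (10.5 M and 28.8 M) and given as CPM. The deeper library has the smaller counting error. Intervals at 95% are exact Clopper-Pearson intervals. They were tested on simulated data only and cover counting error, not differences between rats. Python 3.11.15 with scipy 1.17.1 and pandas 2.3.3, and edgeR 4.0.16 in R 4.3.3 (TMM scaling only), were used. No significance test was made, since a single group was measured. Named genes are the 3 highest and 2 lowest of each role, the 5 with the largest ratio between libraries, the 2 highest of each list, Plxna2 and Ephx4. Others that the text names, such as Kdr and Pcdhb8 in the promoter search, follow a result. For 1 member the values are not reported here. A search of protein sequences for the zinc-binding motif was planned and not made. Symbols were matched to RefSeq promoters by name. Alternatives were other scalings, other minimum counts, another threshold and single libraries. The members and lists were chosen with earlier results of these data known.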

Additional observations from a re-analysis of the deposited data

How the results depend on the processing

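With DESeq2 size factors or TMM in place of library totals, the median level of the members stayed at 22.7 CPM, and with single libraries it ranged from 21.1 to 23.7 CPM. The median of the members divided by that of the rest of the list was 1.11, and 1.03 to 1.16 with single libraries. The number of members past 0.5 between the libraries was 4 under the 3 scalings, 2 with a minimum of 50 counts, 5 with a minimum of 1 count, and 0 at a threshold of 1, with fewer genes tested or a wider threshold by construction. The 8 ADAMTS and ADAMTSL genes were lower in replicate 2 under each scaling, and so were the 6 with at least 50 counts, alternatives added after seeing the data. The median ratio of the neurexins and Nlgn1 was -0.0047 with library totals, 0.012 with DESeq2 size factors and 0.011 with TMM, so no direction holds for them. The median of all genes moved by less than 0.1 between scalings. Without Col7a1, the collagen with fewer than 10 counts in a library, the collagen median rose from 59.2 to 73.5 CPM. No paired analysis was possible because only a single group has RNA counts here. The test of accessibility at the members' start sites was not run, since the gene table used here is of the build GRCr8.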
